A study of Rattus norvegicus with 6 samples.

Results

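The Wnt ligands, receptors, inhibitors and targets described here are 61 of the 17089 genes in the deposited table, taken by symbol: the Wnt, Frizzled, secreted Frizzled-related, Dickkopf, R-spondin, Lgr, Dishevelled and TCF families, with Frzb, Wif1, Lrp5, Lrp6, Axin1, Axin2, Lef1, Ctnnb1, Apc, Gsk3b, Rnf43, Ror1, Ror2, Ryk, Nkd1 and Nkd2. The rule goes by symbol and sets no limit on a measured value, although it was written with earlier results of these data known. Ventricular heart muscle cells were made to express Tbx18, a T-box factor needed in the developing sinus node, with the aim of pacemaker-like cells. They were neonatal rat ventricular myocytes (NRVMs), primary cells isolated from Sprague Dawley pups aged 1 to 3 days, transduced on the day of isolation and harvested on day 4. All were grown on fibronectin in an M199-based medium, with 10% fetal bovine serum at first and 2% from day 3. The Tbx18 group (3 libraries) received Ad-Tbx18-IRES-GFP, an adenovirus that carries Tbx18 and GFP, and the GFP group (3 libraries) received Ad-GFP, so every culture carried an adenovirus and GFP. The vector's promoter and the species of its Tbx18 are not given in the labels. Such cultures hold stromal cells beside myocytes, and in bulk RNA fewer cells of a type and less RNA per cell cannot be told apart. The labels do not say whether replicates came from separate isolations, so the p-values below describe only how these libraries vary, possibly for technical reasons.

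Values are normalized counts, the gene read counts of a library divided by its size factor by the authors. Recovered reads ran from 17074483 to 19800300 in the Tbx18 libraries and from 17460507 to 18934232 in the GFP libraries. Tbx18 itself was at 5937 to 6236 normalized counts in the Tbx18 libraries, against 268 to 312 in the GFP libraries. No gene of the marker lists that follow was at 0 in all libraries. Summed over 7 cardiomyocyte markers, of which 5 were called lower and 0 higher, the Tbx18 libraries held 356168 to 372388 normalized counts and the GFP libraries 581895 to 647898. Over 10 fibroblast markers the sums were 516087 to 600230 in the Tbx18 libraries and 240545 to 280410 in the GFP libraries, and 9 of the 10 were called higher. The exception, Col1a2, was close to 0, at 10.1 to 26.3 in the Tbx18 libraries and 2.30 to 18.5 in the GFP libraries. Over 9 endothelial markers, 5 called higher and 1 lower, the sums overlapped, at 2382 to 2507 in the Tbx18 libraries and 1628 to 2650 in the GFP libraries. Smooth muscle and pericyte markers (5 of 9 called higher, 1 lower) summed to 122254 to 134106 in the Tbx18 libraries and 79705 to 117524 in the GFP libraries. Epicardial and mesothelial markers (6 of 7 called higher) summed to 3858 to 4575 in the Tbx18 libraries and 766 to 1023 in the GFP libraries. Macrophage markers (3 of 7 called higher) summed to 1048 to 1494 in the Tbx18 libraries and 629.8 to 1211 in the GFP libraries, and 6 Schwann and neuronal genes (1 called higher, 1 lower) to 173 to 195 in the Tbx18 libraries and 452 to 496 in the GFP libraries. The part of cell composition in the results below was not tested.

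Wnt proteins are secreted lipid-modified ligands that bind Frizzled receptors. With the co-receptors Lrp5 and Lrp6 they stop a complex of Axin, Apc and the kinase Gsk3b from marking beta-catenin for destruction, so that beta-catenin enters the nucleus and acts with TCF/LEF factors. Other Wnts, Wnt5a and Wnt11 among them, act mostly through Ror, Ryk and Frizzled receptors on cell polarity and movement without beta-catenin. In the embryonic heart the beta-catenin arm is known to act in stages, favouring and then restraining the cardiac fate, and it takes part in the specification of the sinus node.

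Of the 61 members, 42 reached a mean of 10 normalized counts over the 6 libraries and were tested with limma on log2 of the normalized count plus 1, with Benjamini-Hochberg adjusted p-values over all 11230 genes tested. At an adjusted p under 0.05, 18 were higher and 10 lower in the Tbx18 libraries, together 66.7% of those tested, against 46.0% of all genes tested (22.5% higher and 23.5% lower). A called change of at least 2-fold was seen for 11 members, 8 higher and 3 lower, where 12.3% of all genes had one (8.04% higher and 4.22% lower). These counts hold Wnt5b and Rspo1, 2 members that passed the limit only through the group in which they were high. For 31 of these 42, or 73.8%, every Tbx18 library lay on one side of every GFP library, against 57.2% of all genes. The median log2 fold change was 0.16 over the members tested and 0.01 over all genes, and the median size of the change was 0.50 and 0.33. With every library scaled to equal recovered reads, which moved the median of all genes to 0.27, 25 members were higher and 4 lower, and over all genes 4770 were higher and 1351 lower, in place of 2525 and 2639. Without Tbx18 replicate 3 the count of higher members was 10, and without Tbx18 replicate 1 the count of lower members was 6.

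**Figure D1:**
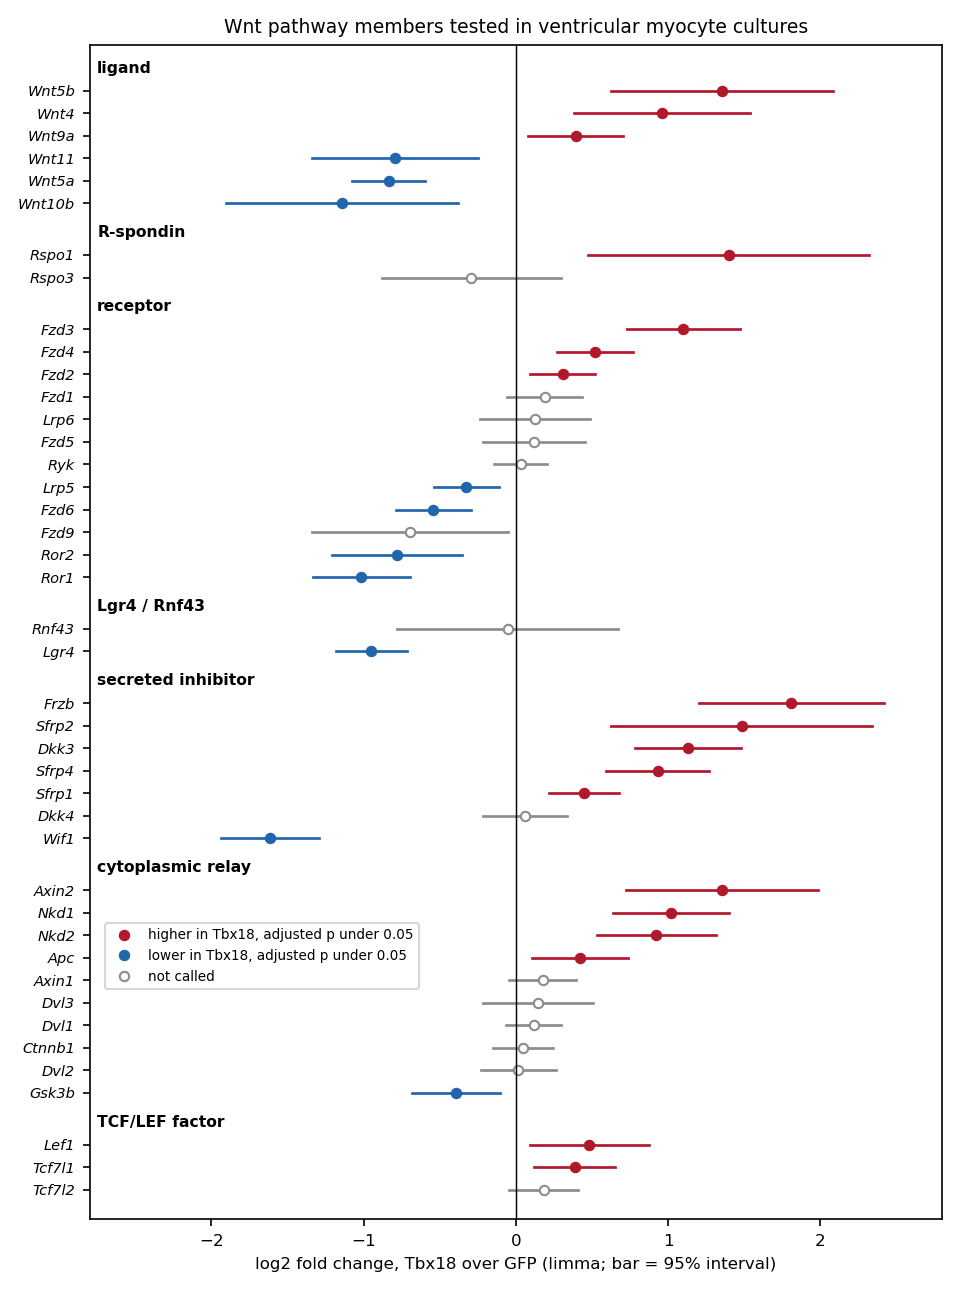
Log2 fold change of Tbx18 over GFP with its 95% interval (horizontal axis) for the 42 members tested, grouped by role down the page; filled red points were called higher, filled blue points lower, and open grey points not called. Secreted inhibitors lie mostly to the right with Wif1 at -1.61 on the left, while Wnt5a, Ror1, Ror2 and Lgr4 lie together between -0.78 and -1.02.

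Of the 6 ligand genes tested, 5 had a mean of at least 10 in both groups, and of these Wnt5a, Wnt11 and Wnt10b were called lower and Wnt4 and Wnt9a higher. All 6 were called and had no overlap of the groups, where 46.0% of all genes were called and 57.2% had no overlap. That count includes Wnt5b, which passed the limit only through its Tbx18 libraries. Wnt5a, the best known ligand of the beta-catenin-independent arm, was at 249, 277 and 289 normalized counts in the Tbx18 libraries, against 481, 469 and 502 in the GFP libraries. The groups lay far apart relative to their spread, and Wnt5a fell 1.78-fold (log2 fold change -0.83 with SE 0.11, limma adjusted p = 0.000239). Wnt11, a ligand of heart development, was at 50.6, 64.6 and 65.0 in the Tbx18 libraries, against 74.5, 139.6 and 108 in the GFP libraries. It fell 1.79-fold (log2 fold change -0.79 with SE 0.24, limma adjusted p = 0.0236), with no overlap but a wide spread of the GFP libraries. Wnt10b, which in mice restrains fat cell formation, was at 13.8, 14.3 and 16.7 in the Tbx18 libraries, against 55.3, 24.7 and 28.8 in the GFP libraries. GFP replicate 1 stood above the other two, and the fall was 2.43-fold (log2 fold change -1.14 with SE 0.34, limma adjusted p = 0.0210).

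Wnt5b, the closest relative of Wnt5a, moved the other way, at 25.8, 17.4 and 27.2 in the Tbx18 libraries, against 8.51, 8.64 and 8.05 in the GFP libraries. Every Tbx18 library was at least as high as 17.4, above all GFP libraries, and the rise was 2.79-fold (log2 fold change 1.36 with SE 0.33, limma adjusted p = 0.00752). Because Wnt5b averaged under 10 in the GFP libraries, it passed the limit for testing only through its Tbx18 libraries, and its call is no support for a change among the ligands. Wnt4, which acts in kidney and ovary development, was at 101, 102 and 115 in the Tbx18 libraries, against 80.8, 38.3 and 50.6 in the GFP libraries. It rose 1.88-fold (log2 fold change 0.96 with SE 0.26, limma adjusted p = 0.0129) with no overlap of the groups. Wnt9a, a ligand of joint and valve development, was called higher by 0.39, at 145 to 166 in the Tbx18 libraries and 109.6 to 122 in the GFP libraries (limma adjusted p = 0.0434).

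Several of these ligand calls were lost when a library was left out. For Wnt9a the log2 fold change then stayed between 0.34 and 0.44, for Wnt10b it ran from -1.37 to -0.80, for Wnt11 from -1.03 to -0.58 and for Wnt4 from 0.72 to 1.25. Wnt9a was not called when any 1 library was left out (limma adjusted p from 0.0559 to 0.139, and from 0.00347 to 0.343 over all its alternatives). DESeq2 did not call Wnt9a (adjusted p = 0.0762). Wnt11 was not called without Tbx18 replicate 1 (0.0876), Tbx18 replicate 3 (0.0508), GFP replicate 2 (0.0800) or GFP replicate 3 (0.0572), nor Wnt10b without Tbx18 replicate 1 (0.0643), Tbx18 replicate 2 (0.0586) or GFP replicate 1 (0.0623). Wnt4 was not called without Tbx18 replicate 3 (0.0552). Over all alternatives adjusted p ran from 0.00237 to 0.0876 for Wnt11, from 0.00153 to 0.0643 for Wnt10b, from 0.000604 to 0.0552 for Wnt4 and from 0.00157 to 0.146 for Wnt5b, the last value after quantile normalization, where the log2 fold change of Wnt5b was 0.62. With equal recovered reads Wnt10b and Wnt11 were not called. Wnt5a was called under every alternative run, with log2 fold changes from -0.88 to -0.57.

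The other 12 ligand genes were below the limit for testing. Wnt3a, Wnt8a and Wnt9b had 0 reads in every library. Wnt16 and Wnt2b came closest to the limit, Wnt16 at 11.0, 6.15 and 9.66 in the Tbx18 libraries, against 5.32, 9.88 and 8.05 in the GFP libraries, and Wnt2b at 4.60, 12.3 and 6.14 in the Tbx18 libraries, against 5.32, 7.41 and 3.45 in the GFP libraries. Both ranges overlapped. Wnt7b was at 5.52, 2.05 and 4.39 in the Tbx18 libraries, against 0, 1.24 and 0 in the GFP libraries, and Wnt7a at 0.920, 3.07 and 0.878 in the Tbx18 libraries, against 0 in each of the GFP libraries. These are a handful of reads, and with no filter on low values the adjusted p was 0.0135 for Wnt7b and 0.0459 for Wnt7a. Wnt1, Wnt3, Wnt6, Wnt8b and Wnt10a averaged 0.293 to 2.40 in the Tbx18 libraries and 0 to 2.83 in the GFP libraries. In the RefSeq annotation of the GRCr8 rat assembly 8 Wnt genes stand as 4 neighbouring pairs, and in 2 of these, Wnt9a with Wnt3a and Wnt10b with Wnt1, 1 gene was tested while its neighbour stayed at or near 0; in the pairs Wnt3 with Wnt9b and Wnt6 with Wnt10a neither was tested.

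**Figure D2:**
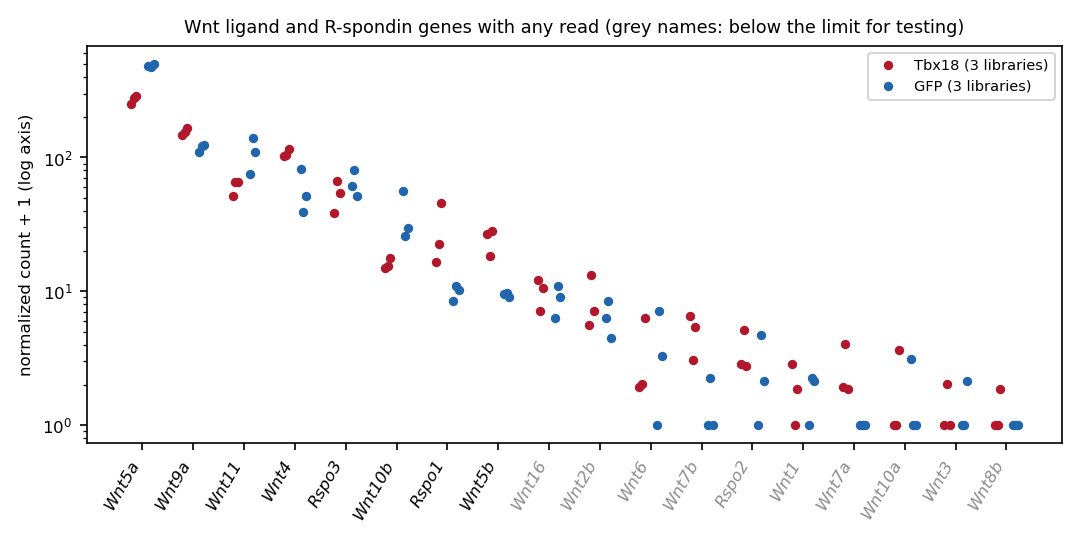
Normalized count plus 1 (vertical log axis) of each Wnt ligand and R-spondin gene with any read, Tbx18 libraries as red points left of the GFP libraries as blue points; grey names were not tested. Wnt5a, Wnt11 and Wnt10b lie lower in Tbx18, and Wnt5b, Wnt4 and Rspo1 higher.

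R-spondins are secreted proteins that strengthen Wnt signals: bound to an Lgr receptor, they remove the ubiquitin ligases Rnf43 and Znrf3, which otherwise clear Frizzled receptors from the surface. Rspo1 was at 15.6, 21.5 and 44.8 in the Tbx18 libraries, against 7.45, 9.88 and 9.21 in the GFP libraries. It rose 3.09-fold (log2 fold change 1.40 with SE 0.41, limma adjusted p = 0.0197), again tested only through its Tbx18 libraries, since its GFP mean was under 10. Tbx18 replicate 3 was the high library, and without it Rspo1 was not called (log2 fold change 0.98, limma adjusted p = 0.0891, from 0.00803 to 0.218 over its alternatives). Rspo3 was at 37.7 to 65.6 in the Tbx18 libraries and 50.6 to 80.3 in the GFP libraries and did not pass the test (95% interval of the log2 fold change -0.88 to 0.29). Rspo2 stayed at or below 4.10 in every library.

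Lgr4, the R-spondin receptor with appreciable reads here, was at 719.8, 698 and 729 in the Tbx18 libraries, against 1367, 1225 and 1579 in the GFP libraries. The lowest GFP library was well above the highest Tbx18 library, and Lgr4 fell 1.94-fold (log2 fold change -0.95 with SE 0.10, limma adjusted p = 0.000102). It was called under every alternative run. Lgr5 was at 0.878 to 3.07 in the Tbx18 libraries and 0 to 1.06 in the GFP libraries and was not tested. Rnf43 was at 28.7 to 38.7 in the Tbx18 libraries and 23.5 to 56.4 in the GFP libraries, with an interval of -0.78 to 0.67 that leaves a change of either sign possible.

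Among the receptors, 3 of 12 tested were higher and 4 lower, or 58.3% called against 46.0% of all genes, with 22.5% of all genes higher. Ror1 and Ror2 are receptor tyrosine kinases that bind Wnt5a and carry its beta-catenin-independent signal. Ror1 was at 250.4, 232 and 275 in the Tbx18 libraries, against 621, 468 and 456 in the GFP libraries, and fell 2.04-fold (log2 fold change -1.02 with SE 0.14, limma adjusted p = 0.000380). Ror2 was at 443, 425 and 473 in the Tbx18 libraries, against 1072, 736 and 576 in the GFP libraries. It fell 1.78-fold (log2 fold change -0.78 with SE 0.19, limma adjusted p = 0.00799), without overlap but with GFP libraries far apart. Ror2 was not called with equal recovered reads (adjusted p = 0.0556, from 0.000138 over its alternatives), while Ror1 was called under each. Ryk, another Wnt receptor of this arm, was at 3192 to 3312 in the Tbx18 libraries and 2973 to 3353 in the GFP libraries, with an interval of -0.14 to 0.21.

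The Frizzled genes split by member. Fzd3, which in mice guides axons and hair follicle polarity, was at 136, 140.4 and 123 in the Tbx18 libraries, against 68.1, 61.7 and 55.2 in the GFP libraries. It rose 2.16-fold (log2 fold change 1.10 with SE 0.16, limma adjusted p = 0.000563). Fzd4, the receptor of Norrin in blood vessels, was at 929, 859 and 1029 in the Tbx18 libraries, against 743, 600.2 and 624 in the GFP libraries. It rose 1.43-fold (log2 fold change 0.52 with SE 0.11, limma adjusted p = 0.00428), and both genes were called under every alternative. Fzd6, the polarity partner of Fzd3, moved in the opposite direction, at 677, 672 and 628 in the Tbx18 libraries, against 856, 923 and 1114 in the GFP libraries. It fell 1.46-fold (log2 fold change -0.54 with SE 0.11, limma adjusted p = 0.00323), and missed the threshold with equal recovered reads (adjusted p = 0.0546, from 0.000139 over its alternatives).

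Fzd2 was at 2733, 2668 and 2949 in the Tbx18 libraries, against 2501, 2014 and 2248 in the GFP libraries. The groups did not overlap and the change was small, a rise of 1.23-fold (log2 fold change 0.31 with SE 0.10, limma adjusted p = 0.0248). That call was lost when any 1 of the Tbx18 libraries, GFP replicate 2 or GFP replicate 3 was left out (0.0521 to 0.0947), and adjusted p ran from 0.00194 to 0.0947 over all alternatives. Fzd1 was at 5319.5, 4957 and 5804 in the Tbx18 libraries, against 5126, 4007 and 5012 in the GFP libraries, and was not called (log2 fold change 0.19, 95% interval -0.06 to 0.44). Fzd5 and Fzd9 were not called either, Fzd9 at 13.3 to 21.2 in the Tbx18 libraries and 24.7 to 31.9 in the GFP libraries (limma adjusted p = 0.0744). Fzd10 stayed at or below 3.07 in every library and Fzd8 had 0 reads in all. Of the co-receptors of the beta-catenin arm, Lrp5 was called lower by a log2 fold change of -0.32, at 1679 to 1992 in the Tbx18 libraries and 2082 to 2413 in the GFP libraries (limma adjusted p = 0.0190). The Lrp5 call was lost without Tbx18 replicate 1 (0.0791) and without Tbx18 replicate 2 (0.0881) and under 3 scalings, with adjusted p from 0.0126 to 0.641 over its alternatives. Lrp6 was not called, with an interval of -0.23 to 0.49.

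**Figure D3:**
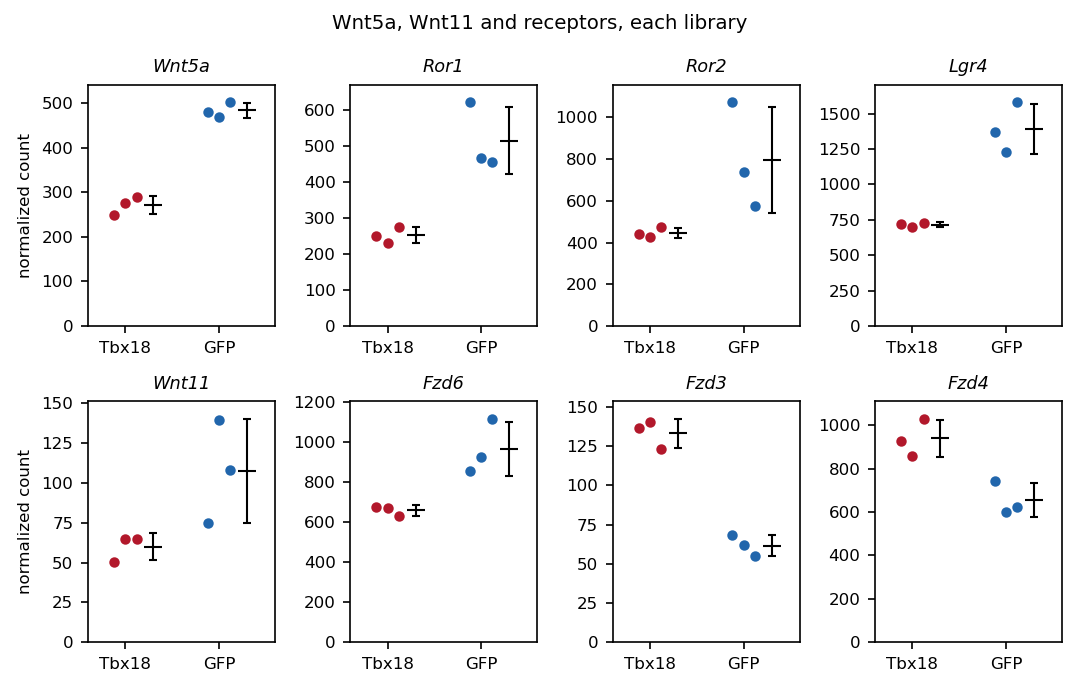
Normalized counts (vertical axis, from 0) of Wnt5a, Wnt11 and 6 receptor genes in each of the 3 Tbx18 libraries (red, left) and 3 GFP libraries (blue, right), with mean and SD in black. Wnt5a, Ror1, Ror2, Lgr4, Wnt11 and Fzd6 are lower in every Tbx18 library than in any GFP library, and Fzd3 and Fzd4 higher.

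Among the 42 members tested, the largest change in each direction was in a secreted inhibitor. Of 7 tested, 5 were higher, 1 was lower and 1 was not called. That is 85.7% called, against 46.0% of all genes (22.5% higher and 23.5% lower). Their median log2 fold change was 0.93, against 0.01 over all genes. Wif1, which binds Wnt proteins outside the cell, was the lower one, at 69.0, 79.9 and 82.5 in the Tbx18 libraries, against 236, 248 and 229 in the GFP libraries. Both groups were tight, and Wif1 fell 3.08-fold (log2 fold change -1.61 with SE 0.14, limma adjusted p = 3.24e-05). Frzb, a secreted Frizzled-related protein first known from cartilage, was at 124, 95.3 and 120.3 in the Tbx18 libraries, against 30.8, 45.7 and 21.9 in the GFP libraries. It rose 3.45-fold (log2 fold change 1.81 with SE 0.27, limma adjusted p = 0.000563), the largest rise among the members tested.

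Of the other secreted Frizzled-related genes, whose products also bind Wnts through a Frizzled-like domain, Sfrp1, Sfrp2 and Sfrp4 rose as well. Sfrp2 was at 66.3, 43.0 and 70.2 in the Tbx18 libraries, against 16.0, 13.6 and 38.0 in the GFP libraries (log2 fold change 1.48 with SE 0.38, limma adjusted p = 0.0106). The highest GFP library came close to the lowest Tbx18 library, and Sfrp2 was not called without Tbx18 replicate 3 (0.0521) or after quantile normalization (0.0567), with adjusted p down to 0.00128 in other alternatives. Sfrp4 was at 319, 369 and 339 in the Tbx18 libraries, against 209, 147 and 186 in the GFP libraries, a rise of 1.90-fold (log2 fold change 0.93 with SE 0.15, limma adjusted p = 0.000833). Sfrp1 was at 7423, 7278 and 7616 in the Tbx18 libraries, against 6144, 4702 and 5615 in the GFP libraries. It rose 1.36-fold (log2 fold change 0.45 with SE 0.10, limma adjusted p = 0.00591), and Sfrp1 and Sfrp4, like Frzb and Wif1, were called under every alternative. Sfrp5 stayed at or below 3.51 in every library and was not tested.

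Of the Dickkopf genes, Dkk3, a divergent member that unlike Dkk1 is not a ligand of Lrp6, was at 4385, 4006 and 4754 in the Tbx18 libraries, against 1895, 1617 and 2598 in the GFP libraries. It rose 2.15-fold (log2 fold change 1.13 with SE 0.15, limma adjusted p = 0.000340) and was called under every alternative. Dkk4, an inhibitor that does bind Lrp6, was at 257 to 286 in the Tbx18 libraries and 233 to 284 in the GFP libraries, with an interval of -0.22 to 0.33. Dkk2 fell just short of the limit for testing, at 16.6, 10.2 and 21.9 in the Tbx18 libraries, against 9.57, 1.24 and 0 in the GFP libraries. With no filter on low values the log2 fold change of Dkk2 was 2.53 (limma adjusted p = 0.0219). Its reads lay mostly in the Tbx18 libraries, so this value supports nothing. GFP replicate 1 (9.57) also came close to Tbx18 replicate 2 (10.2). Dkk1 had 0 reads in every library. The summed fibroblast, smooth muscle and pericyte, and epicardial and mesothelial markers given above were also higher in every Tbx18 library than in any GFP library. The summed cardiomyocyte markers, like Wif1, were lower. Whether the inhibitor changes are related to any of these sums was not tested.

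Axin2, Nkd1 and Nkd2 are negative feedback genes: Axin2 is a scaffold of the destruction complex that beta-catenin with TCF/LEF is known to induce, and the Naked cuticle proteins Nkd1 and Nkd2 bind Dishevelled and restrain the pathway. All 3 rose. Axin2 was at 60.8, 77.9 and 95.7 in the Tbx18 libraries, against 40.4, 21.0 and 29.9 in the GFP libraries, 2.57-fold higher (log2 fold change 1.35 with SE 0.28, limma adjusted p = 0.00353). Nkd1 was at 174, 156 and 184 in the Tbx18 libraries, against 101, 80.3 and 72.5 in the GFP libraries, 2.03-fold higher (log2 fold change 1.02 with SE 0.17, limma adjusted p = 0.00104). Nkd2 was at 516, 369.9 and 568 in the Tbx18 libraries, against 224, 295 and 238 in the GFP libraries, 1.92-fold higher (log2 fold change 0.92 with SE 0.17, limma adjusted p = 0.00205). For none of the 3 did the groups overlap, and each was called under every alternative run.

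**Figure D4:**
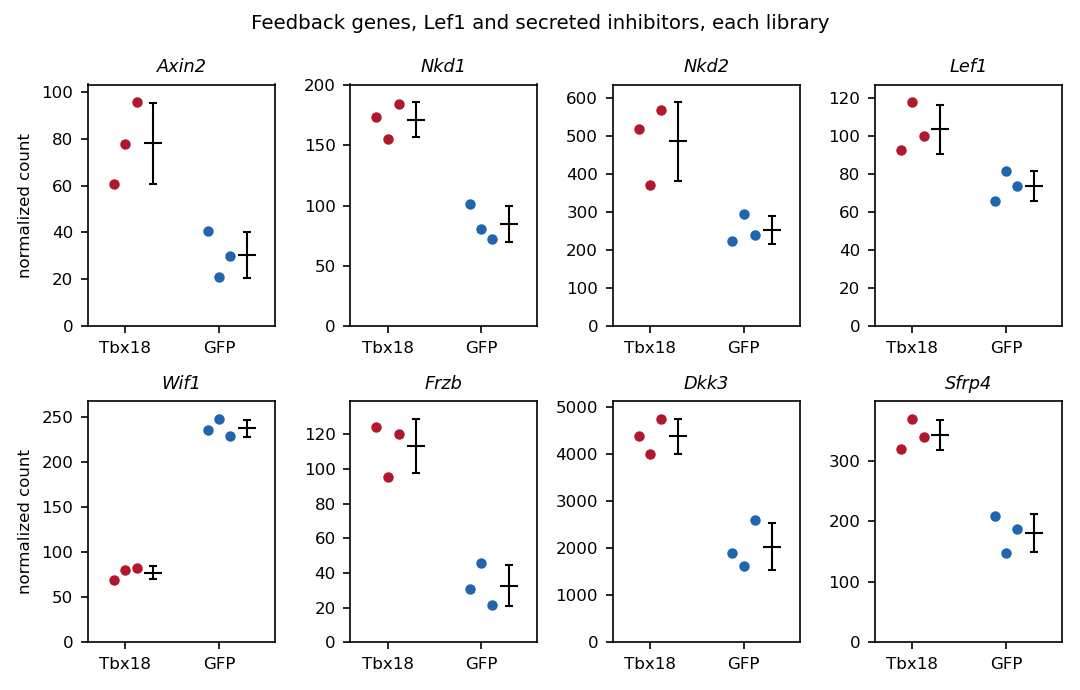
Normalized counts (vertical axis, from 0) of Axin2, Nkd1, Nkd2, Lef1 and 4 secreted inhibitors in each of the 3 Tbx18 libraries (red, left) and 3 GFP libraries (blue, right), with mean and SD in black. Wif1 is lower in every Tbx18 library (69.0 to 82.5) than in any GFP library (229 to 248), and the other 7 genes are higher in every Tbx18 library.

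The promoters of these 3 feedback genes, which moved together, are shown from 250 bases before to 50 bases after the gene start, 5′ to 3′ on the gene's strand, from RefSeq on GRCr8. Capitals mark matches to any of 4 TCF/LEF words on either strand, which are CTTTGAA, the variant with a final T (CTTTGAT), and the forms with T before the last base, namely CTTTGTA and the variant ending in T (CTTTGTT). They lie at chr10:94398535-94398834 (plus strand) for Axin2, chr19:34722797-34723096 (minus strand) for Nkd1 and chr1:31272282-31272581 (plus strand) for Nkd2.
Axin2: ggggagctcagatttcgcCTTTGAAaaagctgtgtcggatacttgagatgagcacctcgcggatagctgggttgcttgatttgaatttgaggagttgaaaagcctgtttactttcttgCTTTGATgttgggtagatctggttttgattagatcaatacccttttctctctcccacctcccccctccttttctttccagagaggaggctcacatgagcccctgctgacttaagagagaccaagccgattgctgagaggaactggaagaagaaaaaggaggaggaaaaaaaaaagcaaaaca
Nkd1: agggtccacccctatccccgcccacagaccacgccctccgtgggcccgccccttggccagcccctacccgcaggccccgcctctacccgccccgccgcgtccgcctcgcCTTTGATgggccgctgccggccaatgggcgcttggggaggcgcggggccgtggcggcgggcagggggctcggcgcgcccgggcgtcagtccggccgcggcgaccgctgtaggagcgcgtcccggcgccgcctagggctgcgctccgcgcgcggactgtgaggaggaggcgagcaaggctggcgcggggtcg
Nkd2: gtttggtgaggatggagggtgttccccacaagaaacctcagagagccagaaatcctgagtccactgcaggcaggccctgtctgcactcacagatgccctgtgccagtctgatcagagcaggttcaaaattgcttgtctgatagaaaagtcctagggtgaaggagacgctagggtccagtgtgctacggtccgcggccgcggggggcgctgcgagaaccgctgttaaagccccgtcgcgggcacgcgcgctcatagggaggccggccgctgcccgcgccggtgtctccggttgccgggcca

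The Axin2 window held CTTTGAA beginning 232 bases and CTTTGAT beginning 132 bases before the gene start, the Nkd1 window held CTTTGAT beginning 141 bases before it, and the Nkd2 window held none of these letters. A RefSeq promoter was matched for 45 of the 61 members. Of these 6, or 13.3%, held a TCF/LEF word, against 17.1% of 33365 rat promoters of the same length, so the members as a group did not stand above all promoters in this count. The 6 were Axin2, Nkd1, Dkk1, Sfrp5, Wnt3 and Wnt8a, of which 4 were not tested. The word GGTGTGA, bound by T-box factors, and its reverse complement were in 0 of the 45 windows and in 3.84% of all promoters. A match is a run of letters and not a measured binding site.

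Of 10 members of the cytoplasmic relay, Axin2, Nkd1 and Nkd2 among them, 4 were higher, 1 was lower and 5 were not called, so that 5 of 10 were called, near the 46.0% of all genes. Ctnnb1, the gene of beta-catenin, was at 7681, 7664 and 7285 in the Tbx18 libraries, against 7973, 7270.2 and 6719.8 in the GFP libraries. The groups overlapped, and the 95% interval of the log2 fold change of 0.05 ran from -0.15 to 0.24. Ctnnb1 was called higher with equal recovered reads (0.31, limma adjusted p = 0.0179) and after quantile normalization (0.32, 0.0131), and its sign turned without GFP replicate 3 (-0.014). The Dishevelled genes Dvl1, Dvl2 and Dvl3, whose products pass the signal on from Frizzled, and Axin1 were not called, with log2 fold changes of 0.12, 0.02, 0.15 and 0.18. Apc, the scaffold of the destruction complex, was called higher by 0.42 (limma adjusted p = 0.0332), at 1183 to 1469 in the Tbx18 libraries and 778 to 1120.2 in the GFP libraries. Gsk3b, its kinase, was called lower, at 716 to 849.7 in the Tbx18 libraries and 835 to 1126 in the GFP libraries, ranges that overlap (log2 fold change -0.39, limma adjusted p = 0.0325).

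Both calls lay near the threshold. With 1 library left out the log2 fold change ran from 0.27 to 0.54 for Apc and from -0.54 to -0.32 for Gsk3b. Apc was not called without Tbx18 replicate 2 (0.0609), Tbx18 replicate 3 (0.134), GFP replicate 2 (0.0920, log2 fold change 0.27) or GFP replicate 3 (0.0501), with adjusted p from 0.00496 over its alternatives. Gsk3b was not called without Tbx18 replicate 1 (0.0893), Tbx18 replicate 2 (0.118), GFP replicate 1 (0.0636) or GFP replicate 3 (0.0994), nor under 3 scalings, and adjusted p ran from 0.00378 to 0.467.

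Of the TCF/LEF factors, the DNA-binding partners of beta-catenin, Lef1 was at 93.0, 118 and 100.1 in the Tbx18 libraries, against 66.0, 81.5 and 73.6 in the GFP libraries. The groups did not overlap, and Lef1, itself often a target of the pathway, was called higher 1.41-fold (log2 fold change 0.48 with SE 0.18, limma adjusted p = 0.0459). This call lay at the threshold: when any 1 of the Tbx18 libraries, GFP replicate 1 or GFP replicate 3 was left out adjusted p was 0.0737 to 0.176, with the replicate number as a block it was 0.0567, and over all alternatives it ran from 0.00515 to 0.505. DESeq2 did not call Lef1 (adjusted p = 0.0765). Tcf7l1, mostly a repressor, was at 563, 519 and 628 in the Tbx18 libraries, against 490.4, 419.9 and 398 in the GFP libraries and was called higher (log2 fold change 0.39, limma adjusted p = 0.0232). It was not called without Tbx18 replicate 1 (0.0689), Tbx18 replicate 3 (0.0955), GFP replicate 2 (0.0579) or GFP replicate 3 (0.0677), the lowest adjusted p over its alternatives being 0.00243. Tcf7l2 was at 401, 403 and 428 in the Tbx18 libraries, against 340.4, 370.5 and 375 in the GFP libraries, a difference that did not pass the test (log2 fold change 0.18, 95% interval -0.05 to 0.41, limma adjusted p = 0.169). With equal recovered reads Tcf7l2 was called higher (0.45, limma adjusted p = 0.0046).

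Further genes of the pathway were taken from 6 lists. Of 116 genes listed, 85 were tested, of which 26 were higher and 23 lower, together 57.6% against 46.0% of all genes, with a median log2 fold change of 0.06. The higher count holds Shisa2 and Mapk10, which passed the limit for testing only through their Tbx18 libraries. Under equal recovered reads 42 were higher and 9 lower. The lower count was 13 without Tbx18 replicate 1 and 14 without Tbx18 replicate 2.

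Genes listed as beta-catenin targets in other settings went both ways, with 6 of 18 higher and 7 lower (72.2% called against 46.0% of all genes). Wisp2, a matricellular protein of the CCN family, was at 2479, 1869 and 2086 in the Tbx18 libraries, against 214, 154 and 148 in the GFP libraries, 12.5-fold higher (log2 fold change 3.64 with SE 0.16, limma adjusted p = 1.56e-06). Its relative Wisp1 rose 3.27-fold to 493 ± 21.1 in the Tbx18 libraries, against 151 ± 28.4 in the GFP libraries, and Met, the receptor of hepatocyte growth factor, rose 4.74-fold to 47.7 ± 7.30 in the Tbx18 libraries, against 10.1 ± 4.34 in the GFP libraries (SD, n = 3 each). Prox1, a homeobox gene of lymphatic vessels and heart muscle, fell 3.35-fold to 105 ± 29.3 in the Tbx18 libraries, against 350.4 ± 133 in the GFP libraries. Ccnd1, the cyclin D1 gene, was at 4703 to 5226 in the Tbx18 libraries and 4290.2 to 5739 in the GFP libraries and was not called.

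Among 20 tested genes of planar cell polarity and the beta-catenin-independent arm, 8 were higher and 6 lower (70.0% called, Mapk10 included, against 46.0% of all genes). The core polarity genes Prickle2, Celsr2 and Vangl2 rose 2.43-fold, 2.06-fold and 2.09-fold, to 452 ± 56.1, 188 ± 31.7 and 101 ± 13.7 in the Tbx18 libraries, against 186 ± 43.3, 91.3 ± 39.8 and 48.4 ± 11.0 in the GFP libraries (SD, n = 3 each, limma adjusted p = 0.000280, 0.00792 and 0.00350). Ptk7, Fuz, Prickle1 and Scrib were called higher as well, with log2 fold changes of 0.98, 0.66, 0.55 and 0.32 (limma adjusted p from 0.000347 to 0.0187). The Jun kinase genes split. Mapk8 and Mapk9, which are widely expressed, fell to 865 ± 26.5 and 1547 ± 63.5 in the Tbx18 libraries, against 1212 ± 104 and 2309 ± 128 in the GFP libraries (SD, n = 3 each, log2 fold change -0.48 and -0.58, limma adjusted p = 0.00216 and 0.000380). Mapk10, better known from neurons, was at 20.3, 29.7 and 18.4 in the Tbx18 libraries, against 2.13, 4.94 and 0 in the GFP libraries (log2 fold change 3.14, limma adjusted p = 0.00310), or 1.95 with a pseudocount of 5. It passed the limit for testing only through its Tbx18 libraries, so its call supports nothing. The kinase gene Prkca, the formin gene Daam1 and the kinase gene Nlk were called lower, with log2 fold changes of -0.76, -0.75 and -0.49, and so was the polarity gene Prickle3, with -0.28 (limma adjusted p = 0.0415). With equal recovered reads Mapk8 and Nlk were not called (0.0762 and 0.0948; lowest over their alternatives 8.96e-05 and 0.000677). Prickle3 was not called when any single library was left out (0.0504 to 0.175), with adjusted p between 0.0353 and 0.868 in the whole set of alternatives. The count tests of edgeR (adjusted p = 0.0528) and DESeq2 (adjusted p = 0.0579) did not call Prickle3 either.

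Of 7 further secreted and membrane modulators, 4 were higher and 2 lower (85.7% called, Shisa2 included, against 46.0% of all genes). Shisa2, whose relative in Xenopus holds Frizzled back inside the cell, was at 96.7, 90.2 and 72.0 in the Tbx18 libraries, against 7.45, 3.70 and 4.60 in the GFP libraries (log2 fold change 3.84 with SE 0.31, limma adjusted p = 2.17e-05). With a GFP mean of 5.25 it passed the limit for testing only through its Tbx18 libraries, so its call supports nothing. Cpz, a carboxypeptidase with a Frizzled-like domain, rose 3.37-fold, and Igfbp4, which in mice also binds Wnt receptors, rose 1.49-fold. Tspan12, the partner of Fzd4 in Norrin signalling, fell 1.49-fold. Of 6 tested genes of ligand secretion and anchoring, 2 were higher and 1 lower (3 of 6 called, near the 46.0% of all genes): Gpc1, a glypican, fell 2.23-fold to 5983 ± 236 in the Tbx18 libraries, against 13316 ± 1976 in the GFP libraries (SD, n = 3 each), while Gpc3 rose 1.51-fold and Reck, a co-receptor gene, 1.23-fold. Reck was not called without Tbx18 replicate 1, 2 or 3 (0.0643 to 0.0972, from 0.000959 over its alternatives). Notum, a secreted enzyme that removes the lipid of Wnts, was at 2.76, 3.07 and 6.14 in the Tbx18 libraries and had 0 reads in the GFP libraries, too few for a test.

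Nuclear cofactors of beta-catenin gave 5 higher and 2 lower genes of 17, or 41.2% called, which is below the 46.0% of all genes. Tle3, a Groucho-type corepressor, was at 723, 732 and 844 in the Tbx18 libraries, against 356, 327 and 359 in the GFP libraries, 2.20-fold higher (log2 fold change 1.14 with SE 0.10, limma adjusted p = 3.96e-05), and its relative Tle1 fell 1.43-fold. The coactivator genes Pygo1 and Bcl9l rose 1.92-fold and 1.66-fold. The destruction complex list had 1 higher and 5 lower genes of 17, or 35.3% called, also below the share of all genes. Apc2, a relative of Apc, was the higher one, 2.21-fold, at 245, 226 and 294 in the Tbx18 libraries, against 145, 96.3 and 106 in the GFP libraries (limma adjusted p = 0.000761). Btrc, the F-box protein that takes up marked beta-catenin, the casein kinase gene Csnk1g3 and Dact3, a Dishevelled-binding protein, were called lower by 1.45-fold, 1.40-fold and 1.34-fold. With equal recovered reads none of these 3 was called (0.0804, 0.0780 and 0.437), nor Tle1 (0.167), and Pygo1 was not called after quantile normalization (0.0501). Tle1 was also not called without Tbx18 replicate 1 (0.0852), and Dact3 when any 1 of the Tbx18 libraries, GFP replicate 1 or GFP replicate 2 was left out (0.0513 to 0.143). The lowest adjusted p over their alternatives was 0.000311 for Btrc, 0.000176 for Csnk1g3, 0.0103 for Dact3, 0.00327 for Tle1 and 0.00181 for Pygo1.

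**Figure D5:**
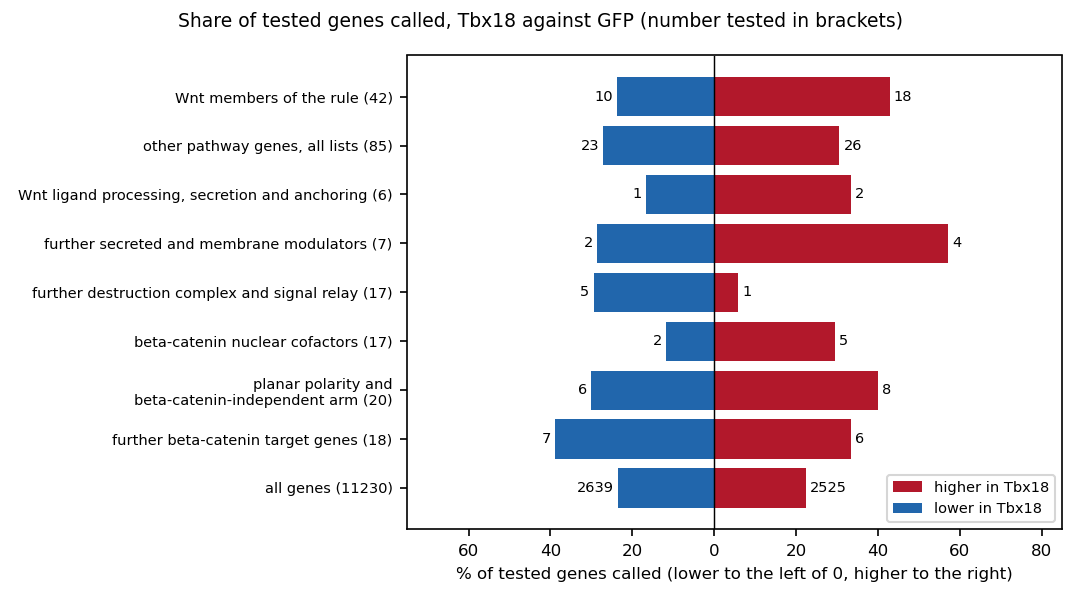
Percent of tested genes called lower (blue, left of 0) and higher (red, right of 0) in Tbx18 than in GFP for the Wnt members, the other pathway genes, their 6 lists and all genes, with numbers called beside the bars and numbers tested in brackets. Of the members 18 of 42 were higher and 10 lower, of all genes 2525 of 11230 higher and 2639 lower (25 and 4 members, 4770 and 1351 genes, with equal recovered reads), and the destruction complex list had 1 higher and 5 lower of 17.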

How the data were processed

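Libraries of 6 cultures were made from 100 ng of total RNA each with a kit that keeps strand and sequenced as 101 bp pairs, per the labels' protocols. Tools named in the submitters' processing notes, without roles, are STAR 2.4.0g1, bcl2fastq 2.17.1.14, DESeq2 1.10.1 and HTSeq. Not given in the sources used here are the genome build, annotation and strand setting, and overlapping or paralogous genes are therefore less certain. Per its name, the deposited table holds DESeq2-normalized counts, a signal for which the authors divided the reads of each gene by 1 size factor per library. All values (100%) were whole multiples of a column's step within 0.01, which gave read counts.

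Genes were tested 2-sided on log2(value + 1) by limma 3.58.1 (R 4.3.3, variance trend), where their mean was at least 10. edgeR 4.0.16 on recovered reads called 5206 genes and DESeq2 1.42.0 called 5096, against 5164 by limma. Alternatives were scalings, pseudocounts, filters, limma settings, these count tests, a replicate block and each library left out; the same alternatives for other pathway genes were added after the data were seen. Tests were tried on simulated counts. Each library was left out with the genes tested kept fixed.

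Members and lists were chosen with earlier results of these data known. Values in all libraries are given for called members with a log2 fold change of at least 0.5 in size and, whatever their result, for 12 genes listed by name. Axin2, Nkd1, Wnt5a, Wnt11, Frzb and Dkk3 belong to both sets. Up to 4 called genes per pathway list are named. Ccnd1, Notum, Mapk8, Mapk9, Prkca, Daam1, Nlk, Prickle3 and members given by ranges were chosen after their values were seen. Fzd7 is not analysed here. Promoters are RefSeq's on GRCr8, all 61 symbols being found there; no coordinates of the deposited table were used.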

Additional observations from a re-analysis of the deposited data

How the results depend on the processing

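Across 21 alternatives, 13 of the 28 called members stayed called in the same direction in every one: Axin2, Nkd1, Nkd2, Dkk3, Frzb, Sfrp1, Sfrp4, Wif1, Wnt5a, Ror1, Lgr4, Fzd3 and Fzd4. With equal recovered reads 4770 genes were higher and 1351 lower in place of 2525 and 2639, members were 25 higher and 4 lower in place of 18 and 10, and other pathway genes 42 and 9 in place of 26 and 23. When 1 library was left out, 10 to 16 members were called higher and 6 to 9 lower, other pathway genes 20 to 32 higher and 13 to 25 lower, and all genes 1905 to 2870 higher and 2056 to 2967 lower; fewer libraries enter these fits. The low ends came without Tbx18 replicate 3 for higher members (10) and for higher pathway genes (20), and without Tbx18 replicate 1 for the others.

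Some members not called in the main fit were called under an alternative. With equal recovered reads Axin1, Ctnnb1, Dvl1, Dvl2, Fzd1, Ryk and Tcf7l2 were called higher (limma adjusted p from 0.00286 to 0.0496). After quantile normalization Ctnnb1, Fzd1 and Ryk were called higher, and Fzd9 and Rspo3 lower (limma adjusted p from 0.00433 to 0.0399). Fzd9 was also called lower by limma without its variance trend (adjusted p = 0.0229). Signs turned only for members that were not called. After quantile normalization Dkk4 was -0.029 and Fzd5 -0.045, and Rnf43 was 0.20 with equal recovered reads and 0.015 under upper-quartile scaling. With 1 library left out, the log2 fold change ran from -0.014 (without GFP replicate 3) to 0.11 for Ctnnb1, from -0.020 (without GFP replicate 2) to 0.12 for Dkk4, and from -0.053 (without Tbx18 replicate 3; -0.05 without GFP replicate 1) to 0.088 for Dvl2. It ran from -0.014 to 0.24 for Dvl3 and from -0.045 to 0.30 for Lrp6, both lowest without GFP replicate 2, and from -0.017 (without GFP replicate 1) to 0.069 for Ryk. For Rnf43 it ran from -0.35 to 0.27, above 0 without Tbx18 replicate 2 and without GFP replicate 1. The cause was not tested.

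Same-numbered libraries deviated from their group means with correlations of -0.005, 0.151 and 0.016, and Tbx18 replicate 3 correlated best with GFP replicate 1 (0.113). The largest correlation (0.151) was between libraries of the same number. With 3 libraries per group these values cannot settle whether the numbers mark pairs. The labels do not say, and the main fit did not pair them. With the replicate number as a block 26 members were called in place of 28, Lef1 and Wnt9a being lost, and 5155 genes in place of 5164. At this depth, members with a mean under 10 normalized counts, 12 ligand genes among them, fell below the limit for testing. The reason for their low counts was not tested.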
